A study of Mus musculus with 6 samples.

Results

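Complement genes were examined in GFP+ fibroblasts (FBs) of Pdgfra-GFP reporter mice and in alveolar organoids grown with such FBs. The 8 genes were C1ra, C1s1, C3, C4b, C7, Cfb, Serping1 and Cd55, taken by symbol from the gene rows of 6 single-cell count tables. Each symbol had a row in all 6 tables, which listed 30830, 30828, 32285, 32285, 32285 and 32285 genes, and 20490 symbols were common to the 6 tables. For each gene the unique molecular identifiers (UMIs) of a group of barcodes were summed and given as CPM, the count scaled to a total of 1000000 UMIs in that group, by library and by cell subsets gated on marker genes.

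The lung was sampled in a pair of experiments on adult male mice, 14 days after the last exposure. In the single-dose experiment, Pdgfra-GFP mice received PBS or 1 oropharyngeal dose of bleomycin, a drug that injures the alveolar epithelium and leaves the lung fibrotic. The dose is 2 U/kg in the growth protocol and 4 U/kg in the treatment label. In the repetitive experiment, PDGFRa-EGFP mice received PBS or bleomycin once a week for 3 weeks, with 1 U/kg as the first and the second bleomycin dose and 0.5 U/kg as the last. In the organoid experiment, type 2 alveolar epithelial cells (AEC2s) sorted as tomato+ from tamoxifen-treated SpcCreER donors, in which the surfactant protein C promoter drives the recombinase, were mixed with GFP+ FBs from PBS-treated mice (normal FBs) or from mice given 2 U/kg bleomycin (fibrogenic FBs) and grown in Matrigel for 2 weeks. The labels give a mix of 10 AEC2s to 1 FB, whereas the study's methods describe FBs in excess. All FBs were thus sorted on a reporter of Pdgfra, so cells of the lung that do not express Pdgfra were sampled only as carry-over. Each library pooled cells of 3 mice and each condition had 1 library, so no difference has a replicate check and no p-value is given. Every interval below is an exact 95% interval that covers counting error alone.

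Complement is a cascade of blood and tissue proteins that tags surfaces for removal and can puncture membranes. The classical pathway uses the proteases C1r and C1s, encoded in mice by C1ra and C1s1. C1s cleaves C4 and C2 to form an enzyme that activates C3. Complement factor B, the product of Cfb, forms the corresponding enzyme of the alternative pathway, which amplifies C3 activation, and C7 is part of the membrane attack complex. Serping1 encodes C1 inhibitor, which blocks C1r and C1s, and Cd55 encodes decay-accelerating factor, a membrane protein that takes the C3-cleaving enzymes apart. The liver makes most circulating complement, and FBs, mesothelial cells and lung epithelium are known local sources of single components.

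Sequencing depth differed between libraries. The lung libraries held 1060 (single PBS), 1015 (single bleomycin), 6139 (repetitive PBS) and 10737 barcodes (repetitive bleomycin), with median depths of 6780.5, 10711, 10178 and 2478 UMIs per barcode. In the repetitive bleomycin library 43.7% of barcodes had fewer than 2000 UMIs. The organoid libraries held 5441 and 8894 barcodes with medians of 36841 and 4289.5 UMIs. Libraries shared at most 30 barcode sequences. The FB marker list (6 genes, none at 0) summed to 5047, 13447, 4406 and 12823 CPM in the FBs of the 4 lung libraries, in the order above. The myeloid list summed to 49.7, 101.8, 13.3 and 37.3 CPM in the same FBs. These values move with bleomycin, and their part in the ratios below was not tested.

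Transcripts of FBs were also found in other cell types. T cells, used here as a cell type that should lack most of these transcripts, held each of the 8 genes at 0.348 to 0.441 of the FB level in repetitive PBS (119 T cell barcodes) and at 0.430 to 0.608 of it in repetitive bleomycin (186 barcodes). The FB marker list showed the same, with 1588 CPM in T cells of repetitive PBS and 5544 CPM in those of repetitive bleomycin. Within the T cells, 7 of the 8 complement genes were higher in repetitive bleomycin than in repetitive PBS, and of the 7 genes with at least 50 UMIs there 5 passed a 2-fold difference, against 5.63% of the 5328 genes with as many UMIs. C4b, for example, stood at 133.9 CPM in T cells of repetitive PBS and 449.8 CPM in those of repetitive bleomycin. The T cell sums were not spread evenly over barcodes, since at an equal depth of 2000 UMIs a C3 UMI was held by 21% and a C4b UMI by 5% of T cells in repetitive PBS. Whether free RNA, barcodes with more than 1 cell or gating put these transcripts there was not tested, so the T cell level serves as a level for comparison and not as a measured floor. Where a level in an FB subset of this experiment lies at or below the T cells of its own library, that is said beside it. In the single-dose experiment the T cells were few, with 23 and 27 barcodes, and held between 0 and 56 UMIs of any of the 8 genes. In single PBS they had 88.9 CPM of C1ra, 98.8 of C4b, 168.0 of C3 and 19.8 of Cfb, which put the FBs at 2.09, 2.57, 3.21 and 1.17 times the T cell level, with wide intervals (0.318 to 9.75 for Cfb).

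The genes lie on 5 chromosomes (Gencode annotation of GRCm38, all protein coding). C4b (chr17:34728380-34743882), Cfb (chr17:34856374-34862518) and C3 (chr17:57203970-57228136) are on the minus strand of chromosome 17, and Cfb lies 112491 bases from C4b in the major histocompatibility region. The gene next to Cfb is C2, 85 bases away. C1ra (chr6:124512405-124523443, plus strand) and C1s1 (chr6:124530345-124542359, minus strand) are neighbours 6901 bases apart. C7 (chr15:4988762-5063740), Serping1 (chr2:84765387-84775444) and Cd55 (chr1:130439027-130462744) are on the minus strand. C1ra, C1s1, C4b and Cd55 each have a close paralog nearby (C1rb, C1s2, C4a and Cd55b), so their counts are uncertain wherever reads match both copies.

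Promoter windows of 250 bases before to 50 bases after the transcription start were found in RefSeq (GRCm38.p6) for 5 of the 8 genes. C4b, Cfb and Serping1 were not matched. Motifs of factors known from inflammation were searched on both strands. The kappa B motif (GGGA, 4 free bases, CC), bound by NF-kappa B, was present in 20.7% of 32851 windows. ISRE (GAAA, 2 free bases, GAAA), bound by interferon regulatory factors, was in 3.44%, and the C/EBP site TTGCNNAA in 10.8%. The windows of C3 and Cd55 are shown because these genes were high in mesothelial-like barcodes and in organoid epithelium, a choice made after their values were seen. Capitals mark the motif matches on either strand, 5′ to 3′ along the gene, and no matches overlapped.
C3 (chr17:57228087-57228386, minus strand): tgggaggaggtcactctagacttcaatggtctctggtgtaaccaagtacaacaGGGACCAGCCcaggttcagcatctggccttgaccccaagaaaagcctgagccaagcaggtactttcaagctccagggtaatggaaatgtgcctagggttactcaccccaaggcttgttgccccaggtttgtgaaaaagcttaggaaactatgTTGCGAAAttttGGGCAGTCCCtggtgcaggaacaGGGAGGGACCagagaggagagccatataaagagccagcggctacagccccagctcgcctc
Cd55 (chr1:130462695-130462994, minus strand): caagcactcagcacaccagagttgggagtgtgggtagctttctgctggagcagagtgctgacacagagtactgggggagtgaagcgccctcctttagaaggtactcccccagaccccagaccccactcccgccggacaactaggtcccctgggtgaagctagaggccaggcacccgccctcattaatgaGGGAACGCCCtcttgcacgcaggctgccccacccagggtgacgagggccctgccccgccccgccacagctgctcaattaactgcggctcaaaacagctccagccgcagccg
The C3 window held 3 kappa B matches, which began 197, 33 and 10 bases before the start, and 1 C/EBP match 45 bases before it. The Cd55 window held 1 kappa B match 61 bases before the start. The C1ra window held 1 C/EBP match, both C1s1 windows held 1 kappa B match, and 1 of them also held a C/EBP match. A match describes these letters only, and binding was not measured.

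The first question was how complement transcripts in FBs differed 14 days after bleomycin. In FBs of the repetitive experiment, the component genes C3, C4b, Cfb and C1s1 and the membrane regulator Cd55 were higher after bleomycin, the terminal component C7 was lower, and the C1 inhibitor Serping1 was close to its PBS level. The protease gene C1ra was higher in summed CPM and lower once the T cell level was subtracted. Of the 8 genes 3 were at least 2-fold higher (C4b, Cfb and Cd55), where 10.8% of 15133 genes with at least 50 UMIs were, and none was 2-fold lower, where 3.71% were. In the single-dose experiment C4b, Cfb and Cd55 again had the largest ratios of the 8, but none of the 8 genes passed 2-fold in either direction, against 9.36% higher and 4.40% lower of 10696 genes. After the T cell CPM of the same library was subtracted from both sides, a step added after the values were seen, none of the 8 genes was 2-fold higher in the repetitive experiment. The same step left Cfb 2-fold higher and C7 2-fold lower in the single-dose experiment, where the T cells held 2 and 0 UMIs of Cfb and 0 and 1 UMIs of C7. The subtraction can take away too much. Barcodes gated as contractile FBs (MyoFB-like, below) of repetitive bleomycin held the 8 genes at 0.209 to 0.717 of the T cell level. A direction that turns therefore shows dependence on this step and does not give the direction in FBs.

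Counted in either size, 7 of the 8 genes were higher in repetitive bleomycin FBs (63.0% of all genes were) and 5 of the 8 in single bleomycin FBs (56.6% of all genes). Of the 7, C1ra and Serping1 turned direction when the T cell CPM was subtracted. The median log2 ratio of the 8 genes was 0.72 in the repetitive experiment, where the median of all genes was 0.12, and 0.24 in the single-dose experiment, where it was 0.08. The make-up of the FBs also differed. LipoFB-like barcodes were 675 of 894 FBs in single PBS and 280 of 805 in single bleomycin. They were 3146 of 5369 in repetitive PBS and 96 of 8159 in repetitive bleomycin. Other FBs, left without a subset name, were 1663 in repetitive PBS and 4801 in repetitive bleomycin. Of the 4801, 2804 came from 1 cluster with a median of 1271 UMIs. The named subsets thus leave out most of the repetitive bleomycin FBs. The 96 depend on the gate, which put 28 barcodes of a cluster led by the interferon-response genes Rsad2 and Ifit3b among them and left 857 bleomycin barcodes of another cluster, led by Cpm, Nnat and Kcnb2 and with C6 and Hp among its leading genes, under other FBs. In the single-dose experiment a cluster with Hp, Cpm and C6 among its leading genes was counted as LipoFB-like. In single-cell sums over a mixed population, a shift in the subsets and a shift within a subset cannot be told apart, and the subsets are therefore taken up separately further on.

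**Figure D1:**
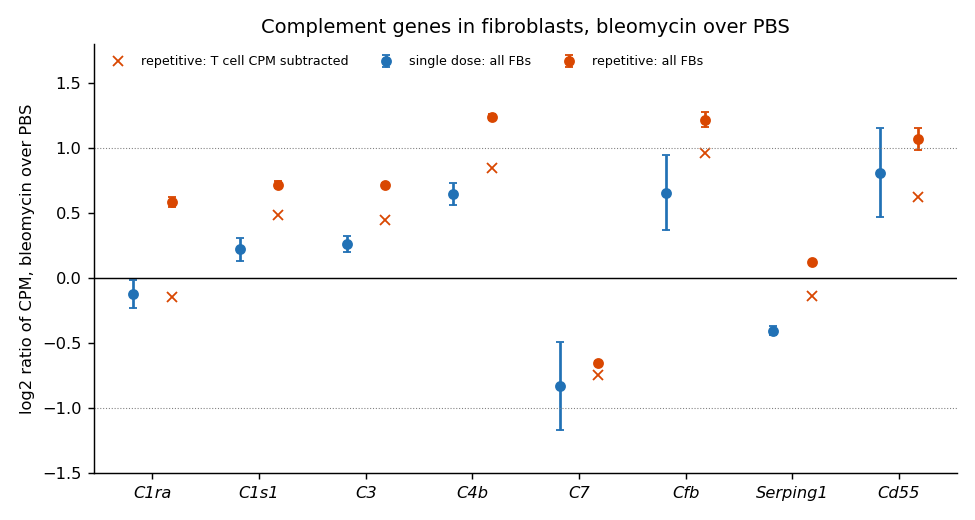
Bleomycin over PBS in FBs for the 8 complement genes, as log2 ratios of summed CPM with exact 95% counting intervals, for the single-dose (blue) and repetitive (orange) experiments, 1 library per condition. Crosses give the repetitive ratio after T cell CPM was subtracted, and dotted lines mark a 2-fold difference. C4b, Cfb and Cd55 lie highest in both experiments and C7 lies lowest, while the crosses of C1ra and Serping1 fall below 0.

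Among the proteases of the classical pathway, C1ra stood at 185.6 CPM in single PBS FBs, 170.2 in single bleomycin, 165.6 in repetitive PBS and 248.5 in repetitive bleomycin. Its ratio was 0.917 (interval 0.850 to 0.990) after a single dose and 1.5 (1.46 to 1.54) after repetitive doses, so the directions were opposite. Both directions turned when the T cell CPM was subtracted, to log2 ratios of 0.30 and -0.15. The single-dose value rests on 9 (PBS) and 10 (bleomycin) T cell UMIs of C1ra. No direction is therefore drawn for C1ra in FBs as a whole.

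C1s1, the protease that cleaves C4 and C2, stood at 257.1 CPM in single PBS, 299.7 in single bleomycin, 310.1 in repetitive PBS and 510.1 in repetitive bleomycin FBs. The ratios were 1.17 (1.10 to 1.24) and 1.65 (1.62 to 1.68). With the T cell CPM subtracted, the log2 ratio was 0.49 in the repetitive experiment and -0.01 in the single-dose experiment. The latter rests on 6 (PBS) and 20 (bleomycin) T cell UMIs of C1s1, which are too few to settle a direction.

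Serping1, the inhibitor of both proteases, was measured at 2131 CPM in single PBS FBs and 1608 in single bleomycin, a ratio of 0.754 (0.737 to 0.772). In the repetitive experiment it was 1511 and 1641 CPM, a ratio of 1.09 (1.08 to 1.10) and a log2 ratio of 0.12, the same size as the median of all genes. Centred on that median, the log2 ratio was -0.0026. Serping1 was thus lower after a single dose and not displaced from the bulk of genes after repetitive doses.

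Of the genes around C3 activation, C3 itself stood at 539.9 CPM in single PBS FBs and 646.3 in single bleomycin, and at 1110.1 in repetitive PBS and 1824 in repetitive bleomycin. The ratios were 1.2 (1.15 to 1.25) and 1.64 (1.63 to 1.66). The C3 level in T cells was 168.0 and 144.0 CPM in the single-dose libraries and 486.7 and 973.6 CPM in the repetitive libraries. In FBs as a whole the direction stayed the same when these were subtracted, with log2 ratios of 0.43 and 0.45. The first rests on 17 (PBS) and 28 (bleomycin) T cell UMIs of C3.

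Among the 8 genes C4b had the largest repetitive ratio. It stood at 253.7 CPM in single PBS, 396.5 in single bleomycin, 366.8 in repetitive PBS and 867.4 in repetitive bleomycin FBs. Its ratios were 1.56 (1.47 to 1.66) and 2.36 (2.33 to 2.40), with log2 ratios of 0.82 and 0.84 after T cell subtraction. The single-dose subtraction rests on 10 (PBS) and 24 (bleomycin) T cell UMIs of C4b.

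Cfb stood at 23.1 CPM in single PBS, 36.4 in single bleomycin, 60.5 in repetitive PBS and 140.9 in repetitive bleomycin FBs. The ratios were 1.57 (1.29 to 1.93) and 2.33 (2.24 to 2.42). T cell subtraction gave a log2 ratio of 0.96 in the repetitive experiment. In the single-dose experiment it left only 3.34 CPM in PBS, and no weight is given to that value.

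C7, which joins the growing membrane attack complex, was lower in FBs of both experiments, with and without T cell subtraction. It stood at 24.8 CPM in single PBS and 13.9 in single bleomycin (ratio 0.562, interval 0.444 to 0.712), and at 1353 CPM in repetitive PBS and 859.2 in repetitive bleomycin (0.635, 0.628 to 0.642). The log2 ratios with T cells subtracted were -1.5 and -0.75, the first from 0 (PBS) and 1 (bleomycin) T cell UMIs of C7. Within subsets the direction was not the same. In LipoFB-like barcodes of the single-dose experiment C7 was 24.4 CPM in PBS and 30.9 in bleomycin (1.27, 0.955 to 1.68), and in MatrixFB-like barcodes of the repetitive experiment its ratio was 1.07. The level itself differed widely between the experiments, which were counted on tables with different gene rows, and no comparison is made across them.

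Cd55, the membrane regulator, was measured at 16.1 CPM in single PBS FBs and 28.2 in single bleomycin (ratio 1.75, 1.39 to 2.23), and at 29.4 and 61.7 CPM in the repetitive libraries (2.10, 1.98 to 2.23). Mesothelial-like clusters, in which Cd55 was high, held 14 and 30 barcodes of the bleomycin libraries and 1 and 7 of the PBS libraries. Without mesothelial-like, smooth muscle-like and proliferating barcodes the single-dose log2 ratio was 0.49 in place of 0.81. T cell subtraction gave 0.15 and 0.62, the first from 0 (PBS) and 2 (bleomycin) T cell UMIs of Cd55.

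The second question was which FB subsets carried the transcripts. Subsets were gated on the marker genes of LipoFBs (alveolar FBs that store lipid), MatrixFBs (adventitial FBs), MyoFBs (contractile FBs) and injured FBs, and are called LipoFB-like and so on. Among these subsets, where a subset held at least 50 barcodes of a library, MatrixFB-like barcodes had the highest level of C3, C4b, C1s1 and Cfb in each of the 4 libraries. The other FBs of single PBS, not ranked here, had 587.3 CPM of C4b against 509.3 in MatrixFB-like barcodes, and less of C3, C1s1 and Cfb. MatrixFB-like barcodes were then set against LipoFB-like barcodes. The MatrixFB-like level was at least 2-fold higher for 6 of the 8 genes in single PBS (6.74% of all genes) and 4 in single bleomycin (6.47%). It was so for 7 in each of repetitive PBS (8.87%) and repetitive bleomycin (9.92%). In both repetitive libraries the LipoFB-like levels of C4b and Cd55, 2 of the 7, lay below the T cells, so the size of those ratios rests on a level that T cells also showed. In single bleomycin C7 was at least 2-fold lower in MatrixFB-like barcodes (10.5% of all genes were), from 19 UMIs. That call was lost under several alternatives, and the count of 4 higher fell when each barcode was gated by its own markers.

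In repetitive PBS, C4b stood at 851.6 CPM in MatrixFB-like barcodes (514) and 91.8 CPM in LipoFB-like barcodes (3146), a ratio of 9.28 (8.83 to 9.75). That LipoFB-like level lay below the 133.9 CPM of T cells in the same library. In single PBS, where T cells had 98.8 CPM, MatrixFB-like barcodes had 509.3 and LipoFB-like barcodes 159.5 CPM, a ratio of 3.19. The LipoFB-like barcodes there were uneven, with 59.0 and 71.4 CPM in clusters 1 and 3, and 440.6 CPM in cluster 5, which held 145 of the 675. The first 2 values lay below the T cell value, which rests on only 10 UMIs.

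Cfb and Cd55 ran the same way. Cfb stood at 98.9 CPM in MatrixFB-like and 17.6 CPM in LipoFB-like barcodes of single PBS, a ratio of 5.61 (3.82 to 8.16), and at 225.2 and 29.5 CPM in repetitive PBS, a ratio of 7.63 (6.95 to 8.37). Cd55 stood at 71.6 and 10.2 CPM in single PBS, a ratio of 7.04 (4.37 to 11.2), and at 79.7 and 7.08 CPM in repetitive PBS, a ratio of 11.3 (9.47 to 13.4). The repetitive LipoFB-like level of Cd55 was again below the T cells, at 13.0 CPM, and that of Cfb was near them, at 24.5 CPM. C3 had 1107 CPM in MatrixFB-like and 463.0 in LipoFB-like barcodes of single PBS (ratio 2.39), and 2529 and 654.0 CPM in repetitive PBS (3.87).

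C7 had the opposite order in the repetitive experiment, where it was well above the T cells. LipoFB-like barcodes had 1421 CPM in repetitive PBS and 1249 in repetitive bleomycin, MatrixFB-like barcodes 836.0 and 892.2 CPM, and T cells 531.4 and 369.5 CPM. MatrixFB-like over LipoFB-like was 0.588 (0.568 to 0.610) in PBS and 0.714 (0.670 to 0.762) in bleomycin. In single PBS the ratio was 1.12 (0.578 to 2.00), and the 13 UMIs of C7 in MatrixFB-like barcodes do not settle an order.

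**Figure D2:**
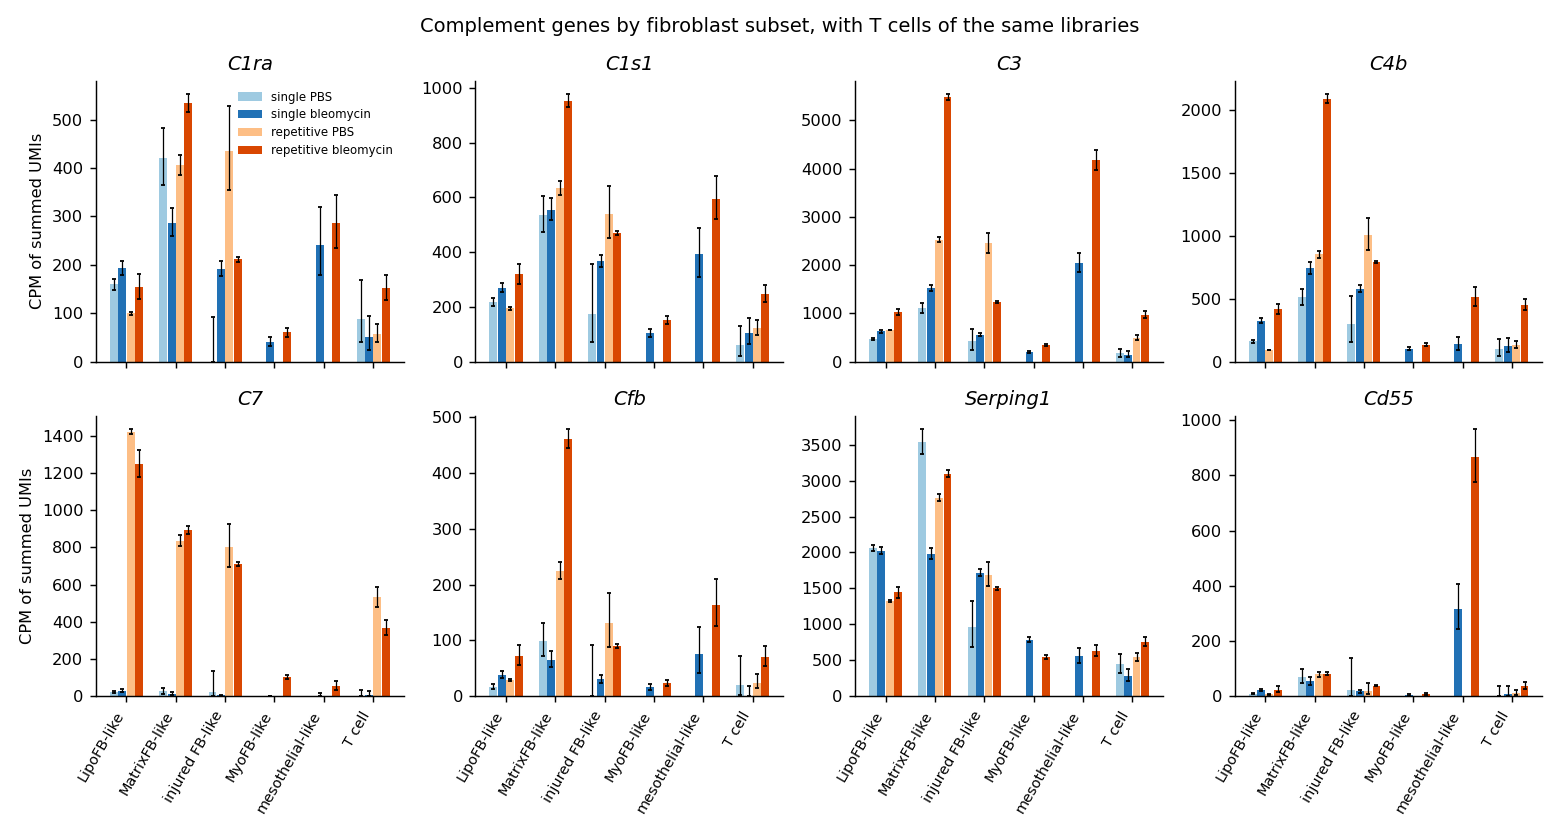
Summed CPM of the 8 complement genes in LipoFB-like, MatrixFB-like, injured FB-like, MyoFB-like and mesothelial-like barcodes and in T cells of the 4 lung libraries, with exact 95% counting intervals, each panel on its own axis from 0. A missing bar means no UMI or fewer than 10 barcodes in that library. Among groups of at least 50 barcodes the MatrixFB-like bars are highest for C3, C4b, C1s1 and Cfb and the LipoFB-like bars for C7 in the repetitive libraries. The mesothelial-like bars, from 14 and 30 barcodes, are highest for Cd55.

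Within MatrixFB-like barcodes, levels of the 8 genes were 1.57 to 9.20 times those of T cells in repetitive PBS and 2.27 to 6.52 times in repetitive bleomycin. C3 was 2529 CPM in repetitive PBS and 5484 in repetitive bleomycin (ratio 2.17, 2.12 to 2.22). C4b was 851.6 and 2090 CPM (2.45, 2.36 to 2.55), and Cfb 225.2 and 461.2 CPM (2.05, 1.90 to 2.21). These 3 of 8 genes passed 2-fold, against 3.44% of all genes. After T cell subtraction the ratios were 2.21 for C3, 2.28 for C4b and 1.95 for Cfb.

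The other genes moved less in MatrixFB-like barcodes of the repetitive experiment. C1s1 had a ratio of 1.5, C1ra 1.32, Serping1 1.12, C7 1.07 and Cd55 1.04 (0.899 to 1.19). With the T cell CPM subtracted Cd55 was lower, at a ratio of 0.691, and C7 higher, at 1.72. In the single-dose experiment, with 78 and 163 MatrixFB-like barcodes, none of the 8 genes passed 2-fold higher (5.43% of all genes did) or 2-fold lower (3.46%). There C3 went from 1107 to 1524 CPM (1.38) and C4b from 509.3 to 746.4 CPM (1.47). Serping1 was lower, at 3540 CPM in PBS and 1981 in bleomycin (0.560, 0.526 to 0.596), and so was Cfb, at 98.9 and 65.6 CPM (0.663, 0.459 to 0.968). C1ra (420.9 and 287.1 CPM), Cd55 (71.6 and 54.8 CPM) and C7 (27.4 and 14.7 CPM, from few UMIs) were lower as well. Counted in either size, 5 of the 8 were lower there, where 47.9% of all genes were. The median log2 ratio of the 8 was -0.47, and that of all genes was 0.02. The MatrixFB-like groups of the 2 experiments are not alike. That of the single-dose experiment holds a cluster led by Sult1e1, with Ackr3, Ebf2 and Ptx3 among its leading genes (29 PBS and 77 bleomycin barcodes), whereas the repetitive cluster 15, with the same genes leading, was left under other FBs (97 and 127 barcodes).

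In LipoFB-like barcodes of the single-dose experiment, 3 of the 8 genes were at least 2-fold higher after bleomycin, against 5.53% of all genes. C4b was 159.5 CPM in PBS and 322.2 in bleomycin (2.02, 1.83 to 2.22), Cfb 17.6 and 38.8 CPM (2.20, 1.65 to 2.96) and Cd55 10.2 and 22.6 CPM (2.22, 1.52 to 3.30). With the T cell CPM of each library subtracted, Cd55 had a ratio of 1.21, C4b of 3.27 and C1ra of 2.01, and Cfb had none, because its PBS level was below that of T cells. The T cells held 0 (PBS) and 2 (bleomycin) UMIs of Cd55, 10 and 24 of C4b, and 9 and 10 of C1ra. C3 was 463.0 and 623.1 CPM (1.35), and Serping1 was 2066 and 2027 CPM (0.981). The LipoFB-like barcodes of the 2 libraries came from different clusters. Those of PBS were mostly in clusters 1, 3 and 5, and those of bleomycin mostly in cluster 2, which was led by Hp, Lcn2 and Lrg1. At a coarser clustering only 13 bleomycin barcodes kept the name, and the directions turned, with log2 ratios of -2.16 for C4b and -1.19 for C3.

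The repetitive LipoFB-like ratios are given with the T cells beside them. C4b was 91.8 CPM in PBS and 416.0 in bleomycin, a ratio of 4.53 (4.06 to 5.05), while the T cells had 133.9 and 449.8 CPM. Cd55 was 7.08 and 24.5 CPM (3.46, 2.12 to 5.36), with T cells at 13.0 and 36.4 CPM, and Cfb was 29.5 and 72.3 CPM (2.45, 1.88 to 3.15), with T cells at 24.5 and 70.7 CPM. These were the 3 of 8 genes past 2-fold, where 8.41% of all genes were. Each of the 3 lay at or below the T cells or within counting error of them in both libraries, so these ratios are not read as a difference in LipoFB-like cells. Serping1 (1330 and 1445 CPM), C7 (1421 and 1249 CPM) and C1s1 (194.7 and 319.2 CPM) lay above the T cells in both libraries beyond counting error, with ratios of 1.09, 0.879 and 1.64 (1.45 to 1.85 for C1s1). With the T cell CPM subtracted the C1s1 ratio was 0.993. C3 (654.0 and 1021 CPM, ratio 1.56) and C1ra (99.7 and 153.5 CPM, 1.54) lay above the T cells in PBS and within counting error of them in bleomycin, and both turned direction when the T cell CPM was subtracted, to log2 ratios of -1.82 and -4.08. Of 8 interferon gamma response genes 7 were 2-fold higher in these barcodes, with a median log2 ratio of 2.54, and 28 of the 96 bleomycin barcodes came from the cluster led by Rsad2 and Ifit3b. Their part in the complement ratios was not tested.

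MyoFB-like barcodes had the lowest levels of the 4 FB subsets in the bleomycin libraries. In single bleomycin (112 barcodes) 7 of the 8 genes were at least 2-fold lower than in LipoFB-like barcodes, with ratios from 0.213 (C1ra) to 0.414 (Cfb), where 8.21% of all genes were that low. C7 had 0 UMIs there, which makes it at least 21.1-fold lower if a floor of 3 counts is set. Of the 8 genes C1ra, C4b, Cd55 and C7 were below the T cells of that library, which held 10, 24, 2 and 1 UMIs of them. In repetitive bleomycin (279 barcodes) all 8 genes were at least 2-fold lower, against 9.98% of all genes, with C7 at 103.7 CPM and a ratio of 0.083 (0.0726 to 0.0946). All 8 genes were also lower in these MyoFB-like barcodes than in T cells of the same library, at 0.209 to 0.717 of their level. The counts moved with the processing. In repetitive bleomycin 1 gene was 2-fold lower with the mean of each barcode's own CPM and 5 were with the deepest barcodes left out, and in single bleomycin 3 were lower and 1 higher at the coarser clustering, which left 13 LipoFB-like barcodes.

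Injured FB-like barcodes lay between the others. In single bleomycin (208 barcodes) C4b was 577.7 CPM, 1.79 times (1.66 to 1.94) the LipoFB-like level, and C1s1 was 368.5 CPM, 1.36 times. C7 was 6.23 CPM, 0.202 times (0.115 to 0.336), and was the 1 gene of 8 past 2-fold lower, where 2.32% of all genes were. In repetitive bleomycin (1948 barcodes) none of the 8 was 2-fold higher (7.18% of all genes were). C4b was 791.8 CPM, 1.76 times (1.60 to 1.94) the T cell level, while the LipoFB-like level of C4b lay below that of T cells. C7 was 709.4 CPM and 0.568 times the LipoFB-like level.

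Single clusters, singled out after their values were seen, spread more widely than the subsets. In single PBS, C4b was 59.0 and 71.4 CPM in FB clusters 1 and 3 but 440.6 CPM in cluster 5, which was led by Kcnk2, Gria1 and Lrat, and 587.3 CPM in cluster 9, led by the early response genes Nr4a2, Fosb and Maff. In repetitive PBS, clusters 2, 4 and 6 had 85.8, 82.8 and 106.5 CPM of C4b, and clusters 8 and 10 had 687.6 and 735.2 CPM. The same clusters 2, 4 and 6 had 1556, 1344 and 1342 CPM of C7. The other FBs of repetitive PBS, which include clusters 8 and 10, had 690.6 CPM of C4b and 1371 CPM of C7. Thus some repetitive PBS clusters had C4b below the T cells of their library and others well above them. In single PBS the T cell level of C4b rests on 10 UMIs, so clusters 1 and 3 are not set apart from it.

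**Figure D3:**
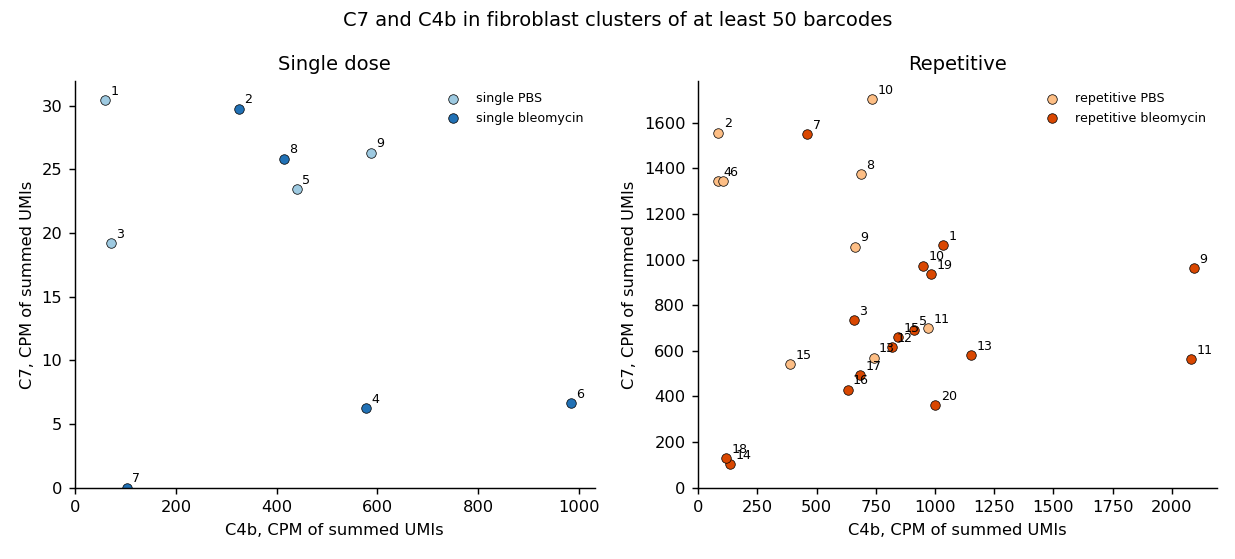
Summed CPM of C4b (x axis) and C7 (y axis) in each FB cluster with at least 50 barcodes in a library, left for the single-dose and right for the repetitive experiment, with cluster numbers beside the points. Repetitive PBS clusters 2, 4 and 6 combine high C7 with C4b of 82.8 to 106.5 CPM, bleomycin MatrixFB-like clusters 9 and 11 have C4b of 2092 and 2080 CPM, and MyoFB-like cluster 14 is low in both.

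In repetitive bleomycin the MatrixFB-like clusters 9 and 11 had 2092 and 2080 CPM of C4b and 5745 and 4249 CPM of C3. A cluster led by Sult1e1, Ackr3, Ebf2, Dpp4 and Wt1 (repetitive cluster 15, left unnamed) had 531.9 CPM of Cd55 in PBS and 409.3 in bleomycin, and 3585 and 3927 CPM of C3. Among FB clusters the C7 level after repetitive bleomycin was high in cluster 7, at 1548 CPM, which was led by Cpm, Nnat, C6 and Hp. Clusters were built without the complement genes. They were singled out after their values were seen, so such levels are a description.

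Mesothelial-like barcodes, from the cell layer that lines the lung surface, had more Cd55 and C3 than the other FBs and less Serping1, C4b and C7. High Cd55 with high C3 was also seen in repetitive cluster 15, so it is not particular to them. They were read in the bleomycin libraries, since the PBS libraries held only 1 and 7 of them. Their marker list (8 genes) summed to 2797 CPM in the 14 single-dose barcodes and 3009 CPM in the 30 repetitive ones, against at most 232 CPM in FBs as a whole. Cd55 stood at 316.9 CPM in them and 22.5 CPM in the other FBs of single bleomycin, a ratio of 14.1 (10.5 to 18.7), and at 868.2 and 56.4 CPM in repetitive bleomycin, a ratio of 15.4 (13.7 to 17.2). C3 was also higher, at 2047 CPM (ratio 3.31, 2.99 to 3.66) and 4182 CPM (2.31, 2.20 to 2.43).

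Cfb was 75.5 CPM in mesothelial-like barcodes and 35.6 in the other FBs of single bleomycin (2.12, 1.17 to 3.55), and had a ratio of 1.17 (0.893 to 1.5) in repetitive bleomycin. C1ra had ratios of 1.43 and 1.15 and C1s1 of 1.32 and 1.17, while Serping1, C4b and C7 were lower. Serping1 was 563.4 CPM there and 1629 in the other FBs of single bleomycin (0.346), and 632.6 and 1648 CPM in repetitive bleomycin (0.384). C4b had ratios of 0.338 and 0.590, and C7 had 0 UMIs in the first library and 55.6 CPM, a ratio of 0.0643 (0.0398 to 0.0983), in the second. The T cells of repetitive bleomycin had 760.4 CPM of Serping1 and 369.5 of C7, so both mesothelial-like levels there lay below them. In single bleomycin 3 of the 8 genes were past 2-fold higher (12.8% of all genes) and 2 past 2-fold lower (16.3%). In repetitive bleomycin 2 were higher (22.7%) and 2 lower (13.8%). With 14 and 30 barcodes these libraries give a narrow basis, and barcodes left out by the thinning below were 0 and 13.

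Cd55 was also high in B cells, a known site of this regulator, at 295.2 CPM in single PBS, 241.0 in single bleomycin, 448.7 in repetitive PBS and 365.2 in repetitive bleomycin. At an equal depth of 2000 UMIs, 54.2% of B cell barcodes in repetitive PBS and 53.5% in repetitive bleomycin held a Cd55 UMI. For T cells the shares were 1% and 8.09%. The Cd55 signal of B cells and mesothelial-like barcodes therefore lay well above that of T cells.

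Shares of FBs with a UMI were set at that same depth, which left out 48, 32, 165 and 3360 FB barcodes of the 4 libraries. C4b was found in 29.0% of FBs in single PBS and 47.1% in single bleomycin (T cells 6.67% and 15.4%), and in 33.0% and 67.8% of FBs in the repetitive libraries (T cells 5% and 39.7%). Without thinning the repetitive shares were 55.1% and 74.0%. C3 was found in 51.5% and 59.9% of single-dose FBs (T cells 20% and 19.2%) and in 71.8% and 77.3% of repetitive FBs (T cells 21% and 52.2%). Thus the C4b share differed more between PBS and bleomycin than the C3 share, and the T cell share moved with both in the repetitive experiment.

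C7 was found in 82.1% of FBs in repetitive PBS and 60.3% in repetitive bleomycin, while the T cell share went the other way, with 18.0% and 32.4%. By CPM, C7 was lower after bleomycin in T cells as well, at 531.4 and 369.5 CPM (0.695, 0.599 to 0.808). In the single-dose libraries it was found in 4.49% and 1.81% of FBs and in 0 of 15 and 0 of 26 T cells. Cd55 was found in 3.19% and 5.17% of single-dose FBs and in 3.54% and 9.84% of repetitive FBs, the last of which is close to the T cell share of 8.09%. Serping1 was found in 95.9%, 88.5%, 92.1% and 91.6% of FBs in the 4 libraries.

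The third question was whether FBs taken from bleomycin-treated lungs still differed after 2 weeks with AEC2s in organoids. Complement levels in organoid FBs were close between the conditions, and none of the 8 genes passed 2-fold higher (1.72% of 16040 genes did) or lower (2.50%). The largest ratio was that of C4b, with 26.1 CPM in normal and 41.1 CPM in fibrogenic FBs (1.58, 1.51 to 1.65), followed by Cfb with 4.95 and 6.84 CPM (1.38, 1.24 to 1.53). Among the 8, these were also the component genes with the largest FB ratios in the repetitive lung libraries. The median log2 ratio of the 8 genes was -0.01, as was that of all genes. The FBs of the 2 libraries were spread unevenly over clusters. The largest FB cluster held 372 normal and 1119 fibrogenic barcodes, and another held 425 and 271. A pair of FB clusters with medians of 1161 and 2533.5 UMIs held 28 and 10 barcodes of the normal library and 979 and 702 of the fibrogenic library, whereas a cluster with a median of 40105 UMIs held 488 and 112. With the mean of each barcode's own CPM, 1 of the 8 genes, Cd55, was 2-fold higher in fibrogenic FBs.

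The remaining genes differed little or were lower in fibrogenic FBs. Serping1 was 376.7 CPM in normal and 339.2 in fibrogenic FBs (0.900, 0.889 to 0.912), C3 was 90.0 and 78.7 CPM (0.874, 0.851 to 0.898), and C1ra was 49.2 and 44.6 CPM (0.906, 0.874 to 0.939). C1s1 was 85.0 and 83.6 CPM, with an interval of 0.958 to 1.01 on the ratio, and Cd55 was 3.83 and 4.3 CPM (1.12, 0.991 to 1.27). C7 was at 1.27 CPM in both, with an interval of 0.803 to 1.25 on the ratio, and so was almost undetected in cultured FBs.

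**Figure D4:**
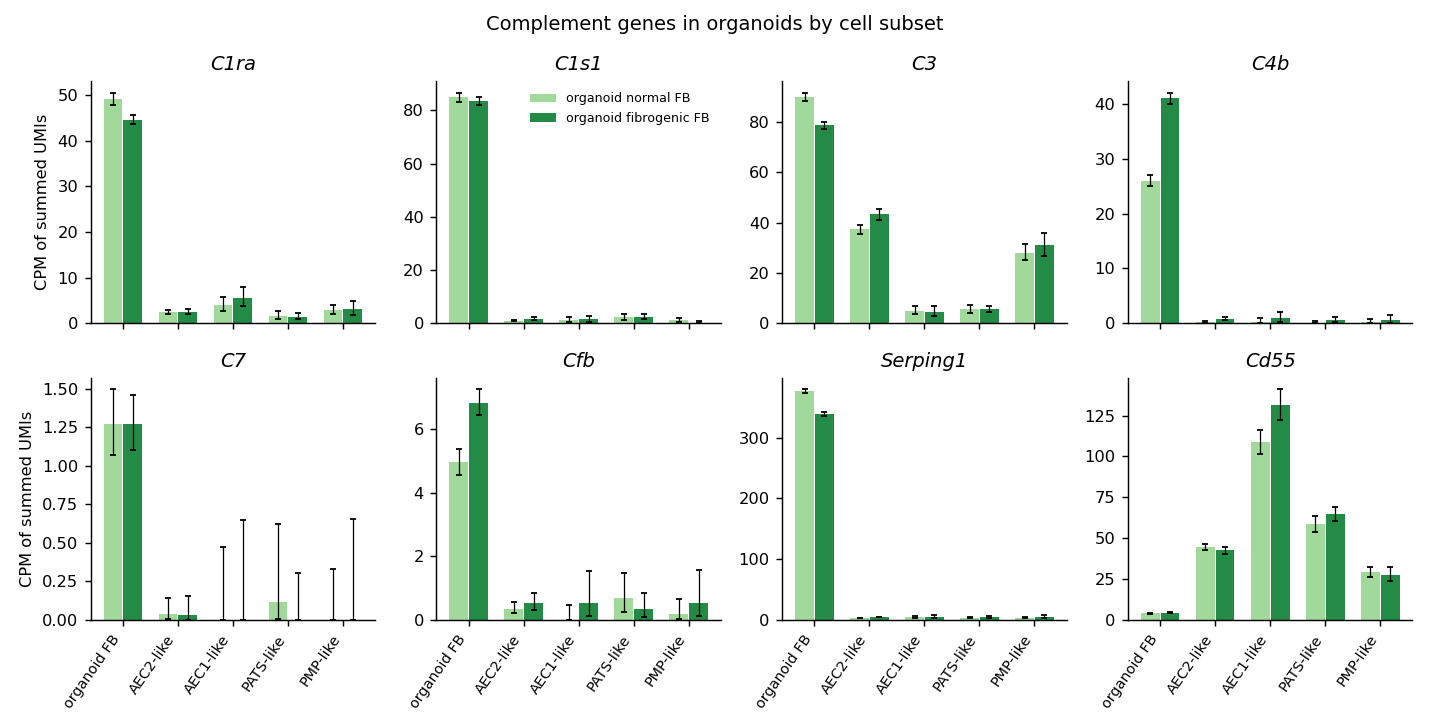
Summed CPM of the 8 complement genes in organoid FBs and in AEC2-like, AEC1-like, PATS-like and PMP-like barcodes of organoids grown with normal (light) or fibrogenic (dark) FBs, with exact 95% counting intervals and 1 library per condition. Of the 8 genes 6 are found mainly in FBs, C3 also in AEC2-like barcodes, and Cd55 mainly in epithelium, with AEC1-like barcodes at 108.9 and 131.6 CPM.

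A pair of complement genes, Cd55 and C3, belonged to the organoid epithelium as well. Cd55 stood at 44.8 and 42.4 CPM in AEC2-like barcodes of the normal and fibrogenic libraries, at 58.5 and 64.6 CPM in PATS-like barcodes (the transitional state between AEC2 and AEC1) and at 108.9 and 131.6 CPM in AEC1-like barcodes. AEC1-like over AEC2-like was 2.43 (2.24 to 2.63) and 3.10 (2.84 to 3.39), and PATS-like over AEC2-like was 1.31 (1.19 to 1.44) and 1.52 (1.40 to 1.66). The order AEC2, PATS, AEC1 held in both libraries, with neighbours outside each other's counting intervals. At 2000 UMIs the share with a Cd55 UMI was 18.3% and 27.6% of AEC1-like, 8.63% and 6.96% of AEC2-like barcodes, and 0.769% and 0.942% of organoid FBs.

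C3 was instead highest in AEC2-like barcodes, with AEC1-like and PATS-like barcodes close to each other. AEC2-like barcodes had 37.3 CPM in the normal and 43.4 CPM in the fibrogenic library, AEC1-like barcodes 4.99 and 4.55 CPM and PATS-like barcodes 5.58 and 5.48 CPM. AEC1-like over AEC2-like was 0.134 (0.0948 to 0.183) and 0.105 (0.0683 to 0.154). Between the libraries C3 in AEC2-like barcodes had a ratio of 1.16 (1.09 to 1.24), and Cd55 in AEC1-like barcodes one of 1.21 (1.09 to 1.33). In the epithelium as a whole 1 of the 8 genes passed 2-fold (1.51% of all genes did), which was C4b at 0.357 and 0.834 CPM, a level set by 29 and 51 UMIs.

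A list of 45 other complement genes, fixed in the design, was read beside the 8. In repetitive FBs 26 of the 45 had at least 50 UMIs, of which 13 were at least 2-fold higher and none 2-fold lower, beside the 10.8% and 3.71% of all genes. In single-dose FBs 14 of 44 did. Of these 6 were 2-fold higher, a count that moved with the UMI minimum, and none 2-fold lower (9.36% and 4.40% of all genes). The genes past 2-fold in both were the initiators C1qa, C1qb and C1qc, the terminal component C6, the fluid-phase regulator Clu and the membrane regulator Csmd1. C1qa was at 9.12 CPM in single and 3.42 CPM in repetitive bleomycin FBs, against 1173 and 994.2 CPM in the myeloid barcodes of those libraries, and the myeloid list moved with it. The repetitive FBs also included an unnamed cluster of 103 bleomycin and 0 PBS barcodes with Cd74, Tyrobp, C1qa and Lyz2 among its leading genes. Its part in these counts was not tested, so they are not read as counts of FB genes alone. Within repetitive subsets, 3 of 12 listed genes were 2-fold higher and 1 lower in LipoFB-like barcodes (8.41% and 4.18% of all genes). In MatrixFB-like barcodes 4 of 13 were higher and 1 lower (3.44% and 2.16%). In the single-dose subsets 1 of 9 was higher in LipoFB-like barcodes (5.53%) and 1 of 6 in MatrixFB-like barcodes (5.43%), and none was 2-fold lower (3.73% and 3.46%).

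Clu went from 5.32 to 36.5 CPM (ratio 6.86) and from 7.56 to 41.4 CPM (5.47), and stood at 845.1 and 1027 CPM in mesothelial-like barcodes of the bleomycin libraries. The paper names Clu among its markers of mesothelial FBs, and it was left out of the gate here. C6 was 9.47 and 25.1 CPM (2.65), and 15.7 and 42.5 CPM (2.71), and in repetitive bleomycin the T cells had 31.1 CPM of it. In LipoFB-like barcodes of the single-dose libraries, where the T cells had 0 and 1 UMIs of C6, it was 11.8 and 49.8 CPM (4.24, 3.09 to 5.91). Csmd1 went from 32.5 to 844.6 CPM in repetitive FBs, a ratio of 26.0 (24.8 to 27.2), with MyoFB-like barcodes at 1566 CPM and T cells at 137.1 CPM, and from 1.16 to 15.9 CPM in single-dose FBs, on 7 and 162 UMIs.

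C2, the partner of C4, was 44.7 and 44.6 CPM in single-dose FBs and 63.5 and 105.1 CPM in repetitive FBs (1.65, 1.59 to 1.72). In organoid FBs 21 of the 45 were read, with none 2-fold higher and 1 2-fold lower, beside 1.72% and 2.50% of all genes. The 1 was Csmd1, at 466.4 and 173.5 CPM (0.372, 0.367 to 0.378).

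Comparator lists showed how other inflammatory genes behaved in the same FBs. Of 8 interferon gamma response genes none was 2-fold higher in FBs as a whole in either exposure, with median log2 ratios of 0.38 and 0.49. Of 6 acute phase genes 4 were 2-fold higher after a single dose, led by Saa3 with 5.15 and 490.0 CPM, and 3 after repetitive doses, with Saa3 at 8.98 and 326.7 CPM, where 9.36% and 10.8% of all genes were. The acute phase gene Cebpd was lower, with ratios of 0.601 and 0.469, and was the 1 of the 6 past 2-fold lower after repetitive doses (3.71% of all genes). For the 8 complement genes the medians were 0.24 and 0.72, as given above.

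Across 41 groups of library and subset (25 from lung, 16 from organoids), genes were ranked by likeness to each complement gene in log2(CPM + 1). The ranking covered 6371 genes with a mean of at least 20 CPM. For C3, C4b and Cfb the 3 genes most alike were all complement genes. For C1ra, C1s1, C7, Serping1 and Cd55 genes outside complement were among the 3, and not all of them are named here. C4b ran closest to C1ra (Pearson r = 0.979), C2 (0.978) and C1s1 (0.973), and C3 ran closest to C4b (0.956), C2 and Cfb (both 0.951). Serping1 ran closest to C1s1 (0.986), and C7 to Plcxd3 (0.965), Agmo and Tmtc1. Cd55 had no close partner, with Ndnf the nearest at 0.641 and correlations of -0.17 to 0.13 with the other 7 genes. The groups share libraries, depth and background, and the contrast of FBs with epithelium enters every value, so these correlations are descriptions and carry no p-value.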

How the data were processed

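Libraries were deposited by the authors as raw UMI counts per gene and barcode (10x Genomics). The processing notes name Cell Ranger 3.0.1, Seurat 3 and mm10. The annotation of the single-dose tables was Gencode M17, and that of the later tables is not given in the sources used here. Counts were summed over barcodes and divided by all UMIs of the same barcodes, in Python 3.11.15 (numpy 2.4.6, scipy 1.17.1, scikit-learn 1.9.0, igraph 0.11.9). All barcodes were clustered without the complement genes (2000 variable genes, 30 principal components, 20 neighbours, Leiden resolution 1). Barcodes more than 3 median absolute deviations above their cluster's median mitochondrial or erythrocyte share were removed. So were clusters with a mean above 25% mitochondrial or 0.5% erythrocyte UMIs. This took out 41 to 944 barcodes per lung library, and 725 and 898 per organoid library. Kept lung FBs and organoid epithelium were clustered again for the subsets. Clusters were gated on fixed markers, with gate limits chosen after clusters were seen. No doublet caller was run, and organoid clusters with markers of FBs and epithelium (211 and 313 barcodes) were set aside. Unnamed organoid clusters (571 normal and 758 fibrogenic barcodes) also entered neither FBs nor epithelium. The text names the 8 genes throughout, and some of the listed pathway genes with at least 10 CPM in a group of at least 50 barcodes. It also names some of the 3 genes most like each of the 8. Genes with at least 50 UMIs entered background counts. Intervals are exact (Poisson, conditional binomial, Clopper-Pearson), at 95%. A bound against 0 UMIs used 3 counts. Scripts were tested on simulated data. The members and lists were chosen with earlier results of these data known. With 1 library per condition no test between conditions was possible. Alternatives are in the closing section. Some items searched or listed are not reported here.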

Additional observations from a re-analysis of the deposited data

Results flagged for a closer look

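In lung FBs, C1ra and Serping1 lay on opposite sides of PBS in the single-dose and repetitive experiments. The log2 ratio of C1ra was -0.12 after a single dose and 0.59 after repetitive doses, and that of Serping1 was -0.41 and 0.12. Each experiment had 1 library per condition, so the difference was not tested. The repetitive log2 ratio of both genes was below 0 once T cell CPM was subtracted. The single-dose log2 ratio was then 0.30 for C1ra, from 9 and 10 T cell UMIs, and -0.35 for Serping1, from 45 and 56.

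In organoids, 5 genes had opposite signs in FBs and in the epithelium of the same pair of libraries, a difference that was not tested. The log2 ratios of fibrogenic over normal were -0.14 in FBs and 0.013 in epithelium for C1ra, -0.023 and 0.33 for C1s1, -0.19 and 0.020 for C3, 0.0030 and -0.17 for C7, and -0.15 and 0.073 for Serping1. The FB values of C1s1 and C7 lay within counting error of no difference, and the epithelial C7 value rests on 3 and 2 UMIs. The epithelial values of C1ra and C3 were smaller than the median log2 ratio of all genes there, 0.045, so their signs carry little weight.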

How the results depend on the processing

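No paired analysis was possible because each condition had 1 library, and no replicate could be left out. Of the counts of genes past a threshold, 269 alternative values stayed within 1.5 times and 35 did not, and of the other values, mostly ratios of single genes set against their counting interval, 2122 stayed within it, 504 moved beyond it and 25 changed sign. In single-dose FBs the log2 ratio of C1ra was 0.083 with the mean of each barcode's own CPM, 0.27 in LipoFB-like barcodes only and 0.30 with T cell CPM subtracted, C7 was 0.34 in LipoFB-like barcodes only, and C1s1 was -0.0067 with T cells subtracted. The count of genes 2-fold higher there went from 0 to 3 in LipoFB-like barcodes only, and T cell subtraction gave 1 higher and 1 lower. In repetitive FBs T cell subtraction gave 0 genes 2-fold higher in place of 3, C1ra at -0.15 and Serping1 at -0.14, and centring on the median gene gave Serping1 -0.0026. In the repetitive subsets C7 was 0.19 (resolution 2) and 0.25 (no barcode filter) in LipoFB-like barcodes and -0.014 when centred in MatrixFB-like barcodes, where Serping1 was -0.084 with no filter. At resolution 0.5, single-dose LipoFB-like ratios were -0.54 (C1ra), -0.29 (C1s1), -1.19 (C3) and -2.16 (C4b), with 13 bleomycin barcodes. There MyoFB-like over LipoFB-like was 0.0010 for C3 and 2.26 for C4b, with 1 gene higher and 3 lower, and injured FB-like over LipoFB-like C3 was 1.76, or 0.17 at resolution 2. In repetitive bleomycin the latter ratio at resolution 0.5 was -0.0099 (C1ra), -0.33 (C3) and -0.22 (C4b). MatrixFB-like over LipoFB-like in single bleomycin had 0 genes 2-fold lower with 10 CPM added, centring, the barcode mean, resolution 0.5, own-marker gating or barcodes above the 98th percentile left out, and 2 higher with own-marker gating. MyoFB-like over LipoFB-like in repetitive bleomycin had 1 gene lower with the barcode mean and 5 without the deepest barcodes. The barcode mean gave 1 gene higher for mesothelial-like over FBs in repetitive bleomycin with C1s1 at -0.058, 1 higher in organoid FBs and 4 in epithelium. Epithelium had 0 higher with 1 or 10 CPM added and 1 lower at resolution 2. With own-marker gating AEC1-like over AEC2-like C1ra was -0.049 in the normal library. Pathway genes 2-fold higher in single-dose FBs were 11 with at least 10 UMIs and 2 with at least 200, with 1 lower at a fold of 1.5. In repetitive FBs there were 8 with at least 200 UMIs, and 1 lower with at least 10. In organoid FBs 3 were higher with at least 10 UMIs, and at a fold of 1.5 there were 2 higher and 2 lower. In epithelium 2 were higher with at least 10 UMIs, 0 with at least 200, and 4 higher and 2 lower at 1.5. Without thinning, shares were higher in bleomycin for 3 of 8 genes in repetitive FBs in place of 6, and in 0 in organoid FBs in place of 3. The cause was not tested. Few UMIs stand behind C7, Cfb and Cd55 in the single-dose libraries.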
